A study of Sus scrofa with 6 samples.

Results

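Genes named for CD surface antigens were followed through the maturation of porcine oocytes in culture. The members were the genes whose only listed array symbol was CD followed at once by a digit, without CD44 and CD55, each represented by its brightest probe. This gave 59 of 9828 named genes, and each of the 59 had 1 probe. The probe of CD5 listed that symbol more than once and was counted as 1 gene. The compared groups were 3 pools of oocytes after maturation, cultured as cumulus-oocyte complexes, in which somatic cumulus cells surround the oocyte, and kept for 44 h at 38 °C under 5% CO2 in medium with follicular fluid and the gonadotropins hCG and eCG, and 3 pools before maturation. All pools held 50 grade I oocytes of pubertal crossbred Landrace gilts, from ovaries collected at slaughter. The titles call the pools before maturation in vivo oocytes, and a BCB test that the design names is not assigned to single arrays. Whether cumulus cells were removed before RNA extraction is not given in the sources used here.

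CD numbers catalogue molecules on the cell surface that antibodies recognise, and most were first defined on leukocytes. The catalogue mixes unrelated families. Tetraspanins are membrane proteins that cross the membrane several times and gather integrins and immunoglobulin-type proteins into clusters, and CD9 on the mouse egg is needed for fusion with sperm. Other antigens shield cells from complement or phagocytes, present antigen to T cells, form lymphocyte receptors, or bind lipids and sugars on myeloid cells. The symbols CD2AP and CD2BP2 follow the naming rule but belong to intracellular partners of CD2.

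Each value below is a log2 level made by RMA, a method that summarises the probes of a gene after background correction and quantile normalization as usually run. A difference is the log2 level after minus before maturation, and 1 unit is a 2-fold change. The array medians lay between 5.62 and 5.64 after maturation and between 5.67 and 5.70 before it. Of 17 measured oocyte markers 15 had a mean above the mean upper quartile of the arrays. KIT, ZP3 and ZP4 were called lower after maturation, as were 8.07% of all probes. The call of ZP3 ended once the arrays were scaled to equal levels of ribosomal protein genes (-0.17, limma adjusted p = 0.454). That of ZP4 ended under the same scaling (adjusted p = 0.57) and with a common median (0.0511). It also ended once any 1 array was left out (adjusted p from 0.0640 to 0.0972). Detection calls were not analysed here, and the signal of one probe cannot be set against that of another, so no order of abundance among genes is given. With 3 arrays in each group, precision is limited by their number.

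At a limma adjusted p under 0.05, 7 of the 59 genes fell and 1 rose, while 51 were not called. The genes that fell were CD58, CD9, CD276, CD82, CD47, CD302 and CD151, and the gene that rose was CD3E. That is 11.9% of the genes called lower and 1.69% called higher, against 8.07% and 3.21% of all 12258 probes (11.3% in either direction), which lies near the background of the array. The median difference of the genes was 0.07, against 0.08 for all named genes. With the replicate number as a block 3 genes were called higher (CD3E, CD28 and CD14) and 8 lower, the added one being CD99L2, while over all probes that fit called 5.07% higher and 10% lower. Scaling the arrays to equal levels of ribosomal protein genes moved the median of all named genes to 0.61, and under it 5 of the 59 were called lower and 46 higher, against 3.45% and 76.1% of all probes. Changes of 2-fold or more were measured for 3.66% of all probes. Each of the 5 decreases of that size, those of CD58, CD9, CD276, CD82 and CD47, was also called under that scaling and under each of the other 12 alternatives. For a single gene the smallest two-sided p of an exact permutation test in this design is 0.10.

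**Figure D1:**
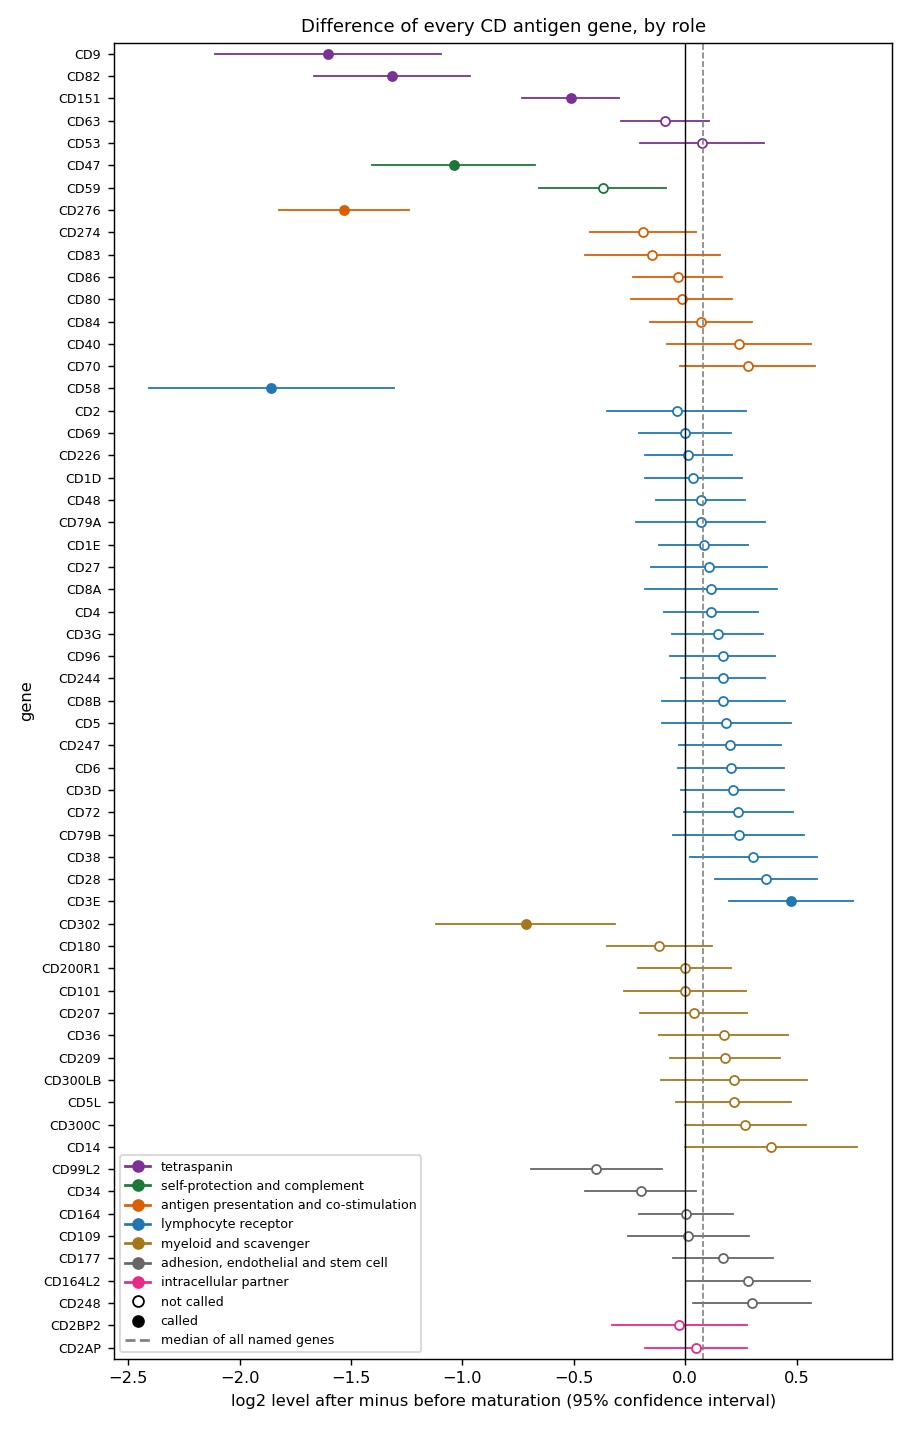
Log2 level after minus before maturation for each of the 59 genes (point) with its 95% confidence interval (line), grouped by role, where filled points passed the test. The intervals of CD58, CD9, CD276, CD82 and CD47 lie farthest to the left and most others lie around the dashed line, the median of all named genes at 0.08.

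Among the 5 tetraspanins CD9, CD82 and CD151 fell, and CD63 and CD53 did not pass the test. Over all probes 8.07% were called lower. CD9, the egg membrane tetraspanin, had log2 levels of 4.87, 4.78 and 5.12 after maturation, against 6.65, 5.99 and 6.93 before it. The groups were 0.87 apart at their closest, and the arrays before maturation were spread over 0.94 with replicate 2 the lowest. The means were 4.92 ± 0.18 after and 6.53 ± 0.48 before (SD, n = 3 each), and CD9 fell by 1.60 (SE 0.22, limma adjusted p = 0.00291), a measured 3.04-fold lower level. In pools of cells fewer cells of a type and less RNA per cell cannot be told apart, which holds for every difference given here.

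CD82, known as a suppressor of metastasis that restrains cell movement, had levels of 5.997, 6.31 and 5.82 after maturation, against 7.55, 7.13 and 7.39 before it. It fell by 1.32 (SE 0.15, limma adjusted p = 0.00118), or 2.49-fold, and all arrays after maturation lay below all arrays before it. CD151, a partner of laminin-binding integrins, had levels of 5.87, 5.90 and 5.99 after maturation, against 6.51, 6.49 and 6.31 before it. Its groups did not overlap either, and it fell by 0.51 (SE 0.10, limma adjusted p = 0.0119), turning to 0.02 with ribosomal protein genes held level. The call of CD151 ended without replicate 1 after maturation (-0.49, adjusted p = 0.0593) and without replicate 2 after maturation (-0.50, adjusted p = 0.0519).

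CD63, a tetraspanin of late endosomes and secreted vesicles, had levels of 7.23, 7.18 and 7.17 after maturation, against 7.34, 7.22 and 7.30 before it. The groups overlapped, and the 95% confidence interval of the difference ran from -0.29 to 0.11, whereas that of CD9 ran from -2.11 to -1.10. CD53, a tetraspanin of leukocytes, lay under the lower quartile of every array, at 4.07, 3.84 and 3.77 after maturation and 3.70, 3.998 and 3.76 before it. Of 13 other tetraspanin genes measured, those without a CD number in the symbol, 1 rose and 0 fell (3.21% and 8.07% of all probes). Their median difference was 0.10. The one that rose was TSPAN33, at 4.91, 4.59 and 4.97 after maturation against 4.26, 4.14 and 4.29 before it, by 0.59 (limma adjusted p = 0.0177). Before maturation 2 of its arrays lay under the array's lower quartile. Its call ended after a second quantile normalization (adjusted p = 0.0539), with cyclic loess (adjusted p = 0.0587) and without replicate 1 or 3 after or replicate 2 before maturation (adjusted p up to 0.0800).

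Known partners of these proteins were also measured. PTGFRN, an immunoglobulin-type protein that binds CD9 directly, had levels of 5.86, 5.28 and 5.78 after maturation, against 8.78, 8.61 and 8.92 before it. Its groups were far apart, and it fell by 3.13 (SE 0.16, limma adjusted p = 1.87e-05). ITGB1, the integrin beta 1 gene, had levels of 7.52, 7.197 and 7.50 after maturation, against 8.66, 8.65 and 9.26 before it. It fell by 1.45 (SE 0.18, limma adjusted p = 0.00159), and neither ITGB1 nor PTGFRN lost the call under any alternative. ITGA3, an integrin partner of CD151 named after its values were seen, fell by 0.54 (limma adjusted p = 0.0286). That call ended under the ribosomal protein scaling (-0.01, adjusted p = 0.954) and without any 1 array other than replicate 2 before maturation (adjusted p from 0.0572 to 0.104). ITGA6, another integrin alpha chain among the listed partners, differed by -0.09 (limma adjusted p = 0.589) and was not called.

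**Figure D2:**
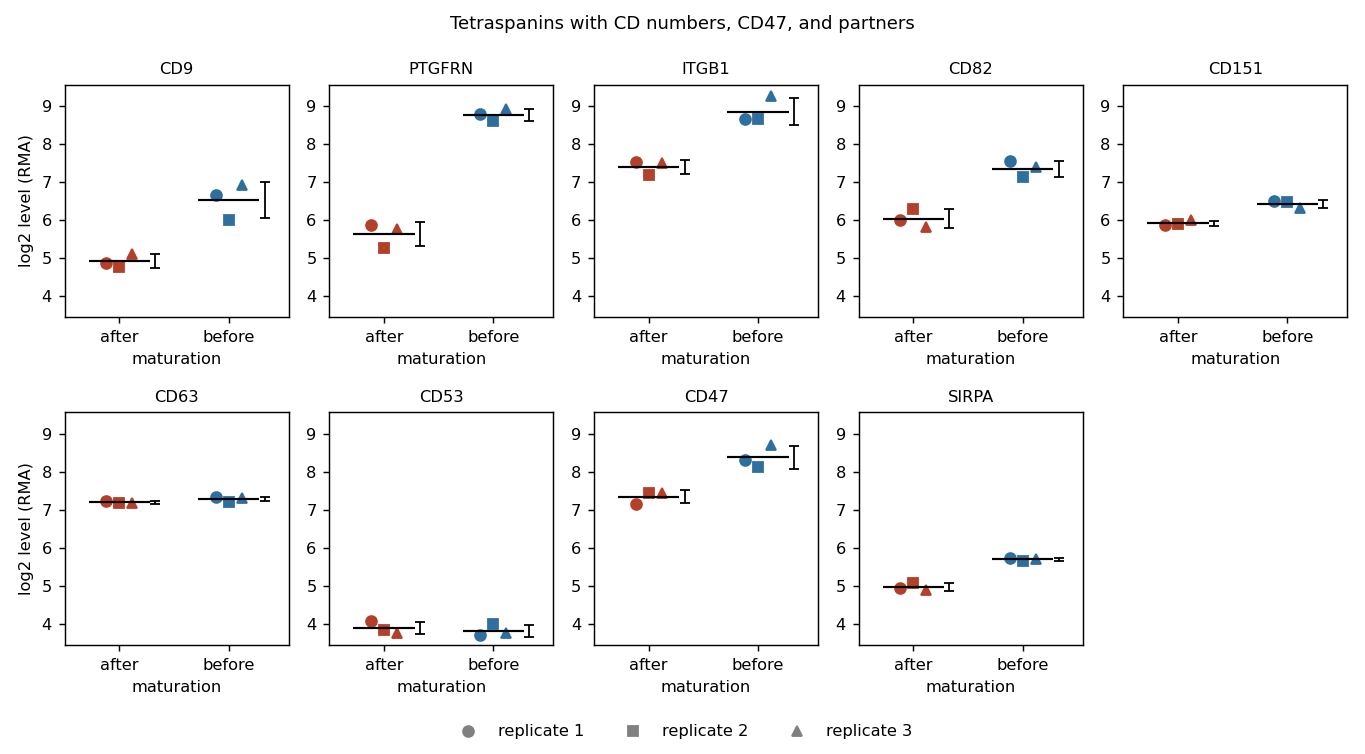
Log2 level on each array for the 5 tetraspanins with CD numbers, CD47 and 3 partners, with the mean (line) and SD (bar, n = 3 per group) after and before maturation, where marker shapes stand for replicate numbers. CD9, PTGFRN, ITGB1, CD82, CD151, CD47 and SIRPA lie lower on every array after maturation, and the groups of CD63 and CD53 overlap.

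Of the 2 self-protection genes CD47 fell and CD59 did not pass the test, while 8.07% of all probes were called lower. CD47, which signals to phagocytes through the receptor SIRPA not to engulf the cell, had levels of 7.16, 7.44 and 7.46 after maturation, against 8.32, 8.13 and 8.72 before it. All arrays after maturation were lower than all arrays before it, and CD47 fell by 1.04 (SE 0.16, limma adjusted p = 0.00492), or 2.05-fold. The levels of SIRPA were 4.94, 5.08 and 4.89 after maturation, against 5.74, 5.66 and 5.70 before it. SIRPA fell by 0.73 (SE 0.09, limma adjusted p = 0.00178), without overlap, and with ribosomal protein genes held level its difference was -0.20 (adjusted p = 0.369).

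CD59, which blocks the pore-forming end of the complement cascade, had levels of 9.23, 9.001 and 9.13 after maturation, against 9.40, 9.73 and 9.34 before it. The groups did not overlap, with replicate 2 before maturation well above the rest, and the difference of -0.37 (SE 0.13) had a limma adjusted p of 0.0950 and turned to 0.16 with ribosomal protein genes held level. No overlap was seen for 36.1% of all probes, and for 23 of the 59 genes, 13 with the higher levels after maturation (21.7% of all probes) and 10 with the lower (14.4%). With cyclic loess that split was 5 higher and 13 lower (1585 and 2225 of all 12258 probes). A common median gave 21 and 10 (4015 and 1455 of all probes). The ribosomal protein scaling gave 44 and 4 (9270 and 409 of all probes).

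Among the 8 genes grouped under antigen presentation and T cell co-stimulation, CD84 included, 1, CD276, fell and 0 rose. Over all probes 8.07% were called lower and 3.21% higher. CD276, also called B7-H3, is a B7 family protein found on many cell types besides leukocytes. It had levels of 7.53, 7.22 and 7.58 after maturation, against 9.15, 8.91 and 8.87 before it. The groups were more than 1 unit apart, and CD276 fell by 1.53 (SE 0.13, limma adjusted p = 2.03e-04), or 2.89-fold. The other 7 ranged from -0.19 for CD274, the PD-L1 gene, to 0.28 for CD70, a ligand of CD27. CD40, a receptor for T cell help, differed by 0.24 (limma adjusted p = 0.287). CD83, a marker of mature dendritic cells, differed by -0.15 (adjusted p = 0.480). CD80 and CD86, the ligands of CD28, lay under the lower quartile of every array and differed by -0.02 and -0.03.

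The group set up for lymphocyte receptors and related genes, which also held CD1D, CD1E and CD38, had 24 members. Of these CD3E rose, CD58 fell and the other 22 were not called. That is 4.17% in each direction, against 3.21% of all probes called higher and 8.07% called lower. CD58, the adhesion ligand of CD2 that many tissues carry, showed the largest change of the 59 genes. It had levels of 4.25, 4.40 and 4.70 after maturation, against 6.56, 5.72 and 6.65 before it. The groups were 1.02 apart at their closest, with replicate 2 before maturation lower than its fellows. CD58 fell by 1.86 (SE 0.24, limma adjusted p = 0.00198), a measured 3.63-fold lower level, with a 95% confidence interval of -2.41 to -1.31. After maturation 2 of its 3 arrays lay under the array's lower quartile, so the measured fold is not exact and a true one can be larger.

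CD2, the T cell receptor for CD58, had levels of 6.91, 6.69 and 6.77 after maturation, against 6.99, 6.96 and 6.55 before it, and the groups overlapped. In the RefSeq gene order of assembly Sscrofa11.1 there were 2 genes between CD2 and CD58, whose differences were -0.04 and -1.86.

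CD3E, a chain of the T cell receptor complex, had levels of 5.88, 5.89 and 5.90 after maturation, against 5.29, 5.67 and 5.28 before it. It rose by 0.48 (SE 0.12, limma adjusted p = 0.0418), with no overlap. The call ended with cyclic loess (0.41, adjusted p = 0.0528) and without any 1 array other than replicate 2 before maturation. Those 5 adjusted p-values ran from 0.0866 to 0.122. The neighbouring genes CD3D and CD3G, which encode partner chains of the same complex, differed by 0.21 and 0.15 and did not pass the test (adjusted p = 0.201 and 0.306), and CD247, the zeta chain gene, differed by 0.20 (adjusted p = 0.221).

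CD28, the receptor for CD80 and CD86, had levels of 9.15, 9.22 and 9.08 after maturation, against 8.67, 8.92 and 8.78 before it. All arrays after maturation were higher, and the difference of 0.36 (SE 0.10) had a limma adjusted p of 0.0528. That adjusted p was 0.0479 with the replicate block, 0.0314 with a common median and 0.0498 after a second quantile normalization. CD28 was called under 4 of the 13 alternatives, those and the ribosomal protein scaling. With any 1 array left out its adjusted p ran from 0.0519 to 0.153. CD38, an enzyme that makes a calcium messenger from NAD, had levels of 4.69, 4.70 and 4.30 after maturation, against 4.23, 4.22 and 4.31 before it. Its groups overlapped through replicate 3 after maturation, and without that array the difference of 0.44 was called (adjusted p = 0.0460), whereas over all arrays it was 0.31 (adjusted p = 0.150). Without another array the adjusted p of CD38 reached 0.355. CD4 and CD8A, the co-receptors that mark helper and cytotoxic T cells, differed by 0.12 and 0.11, and CD79A and CD79B, the signalling chains of the B cell receptor, by 0.07 and 0.24, with adjusted p-values from 0.252 to 0.734.

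Of 11 myeloid and scavenger genes 1, CD302, fell and 0 rose (8.07% and 3.21% of all probes). CD302, a C-type lectin receptor gene, had levels of 5.40, 5.19 and 5.55 after maturation, against 5.97, 5.83 and 6.48 before it. The groups lay 0.28 apart at their closest, and CD302 fell by 0.72 (SE 0.18, limma adjusted p = 0.0361). The call ended without replicate 1, 2 or 3 after maturation (adjusted p = 0.113, 0.130 and 0.0581), without replicate 3 before it (0.0501), after a second quantile normalization (0.0524) and with ribosomal protein genes held level (-0.19, 0.405).

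CD36, which takes up fatty acids and binds thrombospondin, had levels of 9.24, 9.37 and 9.20 after maturation, against 9.03, 8.91 and 9.34 before it. Replicate 3 before maturation lay among the arrays after it, and the difference was 0.17 (limma adjusted p = 0.390). THBS1, the thrombospondin gene whose product also binds CD47, named after its values were seen, differed by 0.41 (adjusted p = 0.127) and was called with the replicate block (adjusted p = 0.0300). CD14, a co-receptor for bacterial lipopolysaccharide, had levels of 4.65, 4.97 and 4.44 after maturation, against 4.44, 4.46 and 4.01 before it. The groups overlapped, and the difference of 0.39 had an adjusted p of 0.170, against 0.0470 with the replicate block. With any 1 array left out the adjusted p of CD14 ran from 0.124 to 0.42. The CD300 genes CD300C and CD300LB stand next to each other in the RefSeq order and differed by 0.27 and 0.22, neither passing the test, and as related copies their single signals are uncertain.

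Of 7 adhesion, endothelial and stem cell antigens 0 were called by limma, with 3 at an unadjusted p under 0.05 (CD99L2, CD164L2 and CD248), which 29.2% of all probes also had. CD99L2, an adhesion protein of leukocyte migration, had levels of 6.24, 6.56 and 6.61 after maturation, against 6.71, 6.98 and 6.92 before it. Its groups did not overlap, and the difference of -0.40 had a limma adjusted p of 0.0844, against 0.0328 with the replicate block. With any 1 array left out the adjusted p of CD99L2 ran from 0.0581 to 0.227. CD164, a sialomucin that sits in endosomes and at the surface, had levels of 11.21, 11.08 and 11.26 after maturation, against 11.17, 11.13 and 11.24 before it. The difference was 0.002 with a 95% confidence interval of -0.21 to 0.21. CD34, a sialomucin of blood progenitors and endothelium, differed by -0.20, and CD109, a membrane protein of the alpha-2-macroglobulin family, by 0.01.

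The intracellular partners did not pass the test. CD2AP, an adaptor between receptors and the actin skeleton, had levels of 10.02, 10.06 and 10.24 after maturation, against 10.15, 10.04 and 9.98 before it. CD2BP2, a splicing-related protein that binds the tail of CD2, differed by -0.03. The groups of both genes overlapped.

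**Figure D3:**
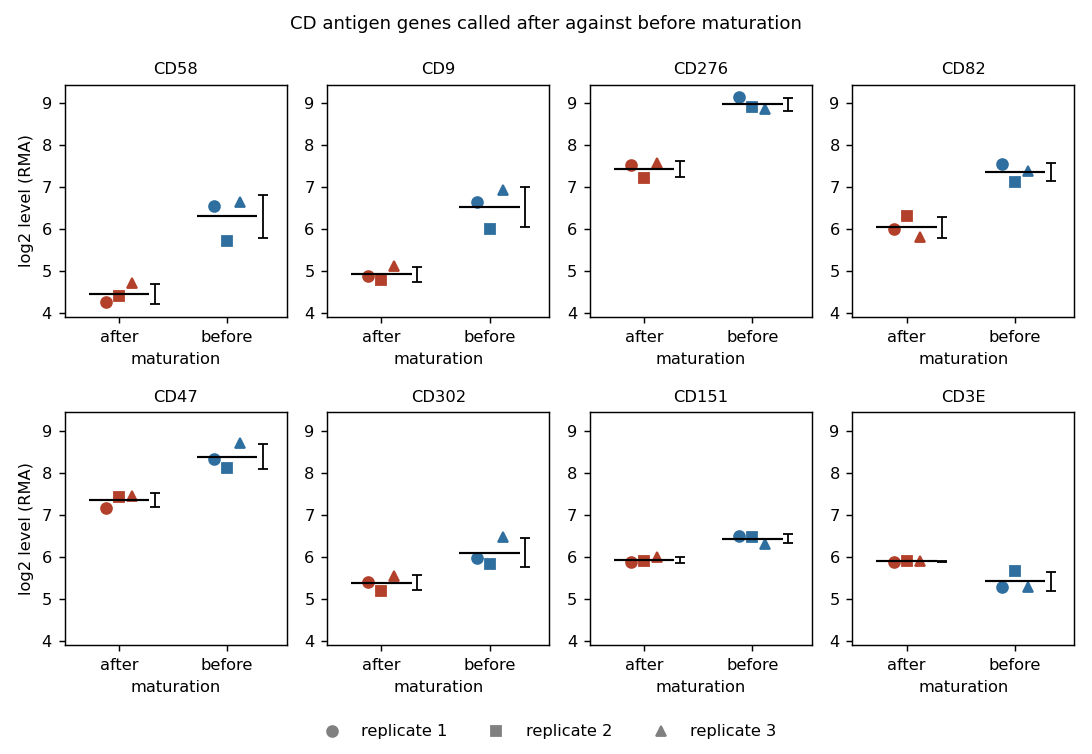
Log2 level on each array for the 8 genes that passed the test, with the mean (line) and SD (bar, n = 3 per group), after maturation on the left and before it on the right of each panel. The 7 genes from CD58 to CD151 lie lower on all 3 arrays after maturation, and CD3E lies higher on all 3. CD151 turned to 0.02 with ribosomal protein genes held level.

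The genes without a call had differences between -0.40 and 0.39, and 37 of these 51 were positive. Small positive differences were common among dim probes of the whole array. The 40 genes with a mean level under the median probe had a median difference of 0.11, and 30 of them were positive. The 4424 named genes under that median had a median difference of 0.11, with 74.4% positive. Replicate 2 after maturation was the highest of its group for 23 of these 40 genes (57.5%) and for 49.4% of the 4424, and its lower quartile was 4.45, against 4.37 and 4.33 on its fellows. On all 6 arrays 17 of the 59 genes lay under the lower quartile, among them CD4, CD48, CD53, CD69, CD80, CD86 and CD226, and 14.9% of all named genes did so. Of the 19 genes with a mean above the median probe 6 fell, and of the 5404 named genes above it 12.5% fell.

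**Figure D4:**
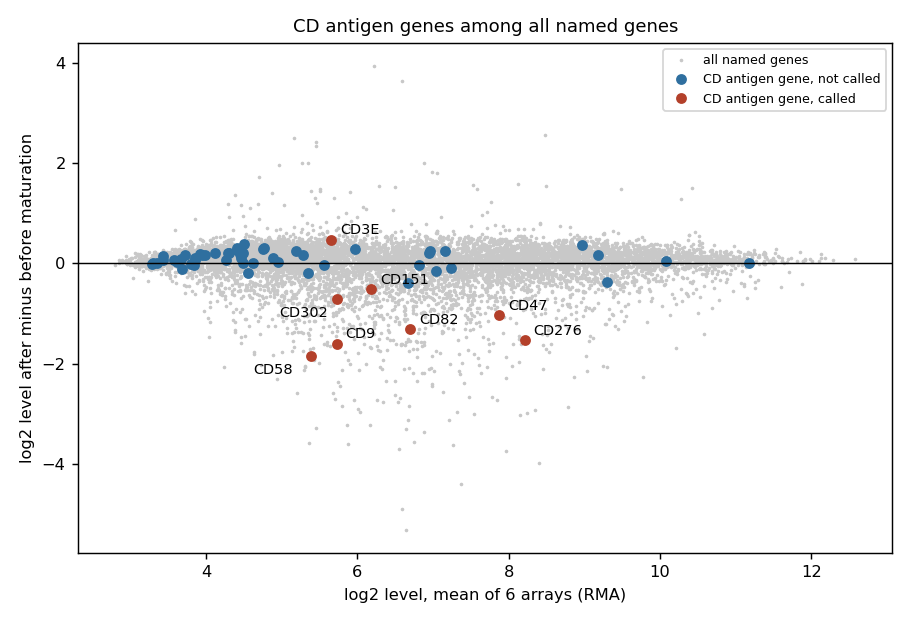
Log2 level after minus before maturation against the mean log2 level of the 6 arrays, for the 59 CD antigen genes (coloured points) and all 9828 named genes (grey). The called decreases lie between mean levels of 5.38 for CD58 and 8.21 for CD276, and the dim genes on the left lie close to 0.

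The 7 genes that fell also varied among arrays of 1 group. Before maturation replicate 2 was the lowest of its group for 5 of the 7 and replicate 3 the highest for 4 of the 7. Among the 879 named genes called lower these shares were 49.6% and 66.0%. After maturation replicate 3 was the highest for 6 of the 7, against 49.4% of the 879.

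Of 36 measured ligands, receptors and partners of CD antigens 7 fell and 0 rose (8.07% and 3.21% of all probes), with a median difference of 0.03. Beside PTGFRN, ITGB1 and SIRPA these held MIF, a cytokine gene. MIF was at 7.91, 7.53 and 7.75 after maturation, against 8.83, 9.43 and 9.18 before it, and fell by 1.41 (limma adjusted p = 0.00120). Of 120 measured genes for CD antigens that go by another symbol 13 fell and 6 rose (8.07% and 3.21% of all probes). Their median difference was 0.08. The smallest p-values among these were those of PTGFRN and of ENTPD1, an ectonucleotidase gene that fell by 2.26, CDH2, the N-cadherin gene, that fell by 1.76, and INSR, the insulin receptor gene, that fell by 1.66 (limma adjusted p from 1.87e-05 to 7.24e-04). Some genes stand in both of these lists.

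Markers of the somatic cells around the oocyte moved in both directions. Of 22 cumulus and granulosa markers 10 fell and 4 rose (8.07% and 3.21% of all probes). The differences ran from -4.41 for HSD17B1 to 3.95 for HSD3B1, both called. On 2 arrays before maturation HSD3B1 lay under the array's lower quartile. The mean log2 level of the 22 markers was 6.26 to 6.47 per array after maturation, against 6.85 to 7.11 before it. Whether this lower mean reflects fewer cumulus cells was not tested. The part of these markers in the decreases of the CD antigen genes was not tested either. Of 39 leukocyte markers without a CD number as symbol 2 rose and 0 fell (3.21% and 8.07% of all probes). Those that rose were PTPRCAP, by 0.56, and GZMA, by 0.37. The call of PTPRCAP ended without replicate 2 or 3 after maturation, and that of GZMA with trend and robust variance and without any 1 array other than replicate 1 before maturation (adjusted p from 0.0503 to 0.0937). The mean of the 39 markers was 4.82 to 4.92 after maturation, against 4.68 to 4.72 before it. On all 6 arrays 16 of the 39 lay under the lower quartile. Among these 16 was PTPRC, the common leukocyte antigen CD45, named as the defining marker, at 3.74, 3.90 and 3.92 after maturation and 3.84, 3.67 and 3.77 before it. Of 12 endothelial markers 0 were called by limma and 2, SOX17 and KDR, had an unadjusted p under 0.05 (29.2% of all probes), with means of 5.19 to 5.34 after maturation and 4.96 to 5.05 before it. SOX17 differed by 0.51 (adjusted p = 0.0567) and was called with the replicate block (0.0369), a common median (0.0336), the dimmest probes left out (0.0461) and the ribosomal protein scaling (2.78e-05). KDR differed by 0.23 (adjusted p = 0.110) and was called with trend and robust variance (0.0442) and the ribosomal protein scaling (0.00131). Of 15 theca, stroma and smooth muscle markers 2, POSTN and COL3A1, rose and 1, ACTA2, fell (3.21% and 8.07% of all probes). The means of the 15 markers were 4.88 to 4.95 after and 4.79 to 4.997 before maturation. Both POSTN and COL3A1 lay under the lower quartile on all 3 arrays before maturation. The calls of POSTN and COL3A1 each ended without some single arrays, replicate 1 after maturation among them (adjusted p = 0.105 and 0.154), and that of COL3A1 also after a second quantile normalization (0.0739) and with cyclic loess (0.0968). The part of these markers in the differences of the lymphocyte and myeloid genes was not tested.

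**Figure D5:**
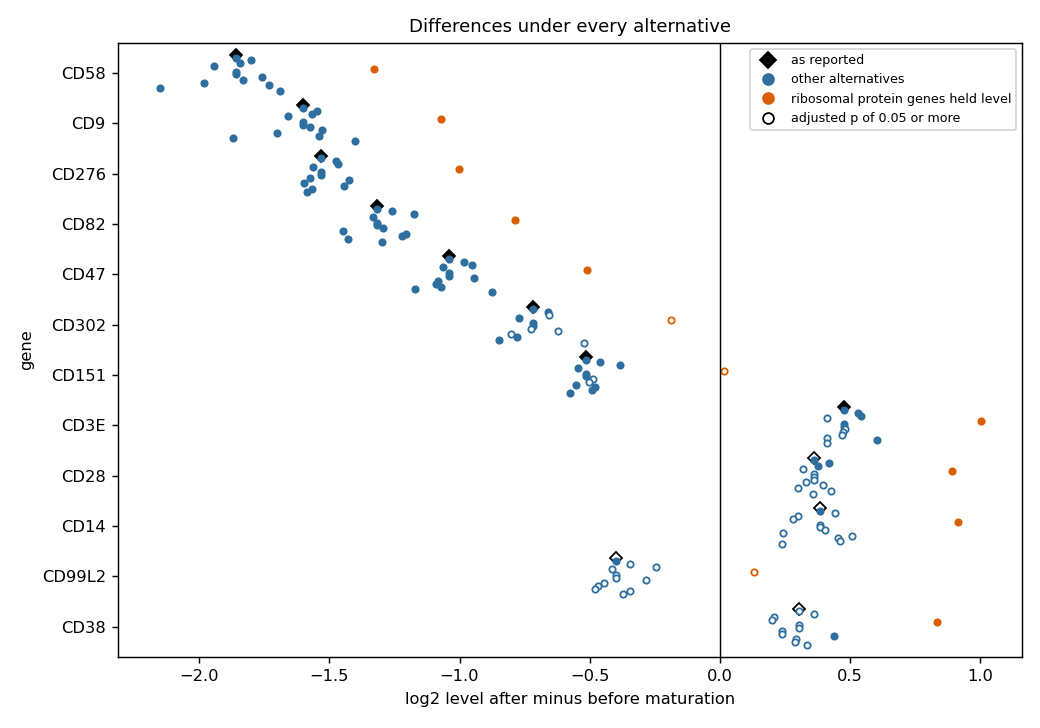
Log2 level after minus before maturation of 12 CD antigen genes as reported (diamonds) and under every alternative (circles), where open symbols have an adjusted p of 0.05 or more and orange stands for ribosomal protein genes held level. CD58, CD9, CD276, CD82 and CD47 have filled symbols left of 0 throughout, and CD151 and CD99L2 lie right of 0 at the orange symbols (0.02 and 0.13).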

How the data were processed

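The deposited table holds log2 expression values of 6 Affymetrix arrays, made by the authors with RMA from 100 ng of total RNA per pool amplified in 2 rounds, per the submitters' processing notes and the labels' protocols. RMA options and filters were not given in the sources used here. The log2 scale was inferred from RMA and the values. Probes were named from the platform annotation (10922 with 1 gene symbol, 268 with several, 1068 with none listed), and all 59 symbols were current in the RefSeq table of Sscrofa11.1. That table also gave the order of genes along chromosomes, and no coordinates from it are printed.

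A two-sided limma test (version 3.58.1, R 4.3.3, functions lmFit and eBayes) was run on all 12258 probes with Benjamini-Hochberg adjustment over all probes. Same-numbered arrays deviated weakly together from their group means (correlations of 0.283, 0.121 and 0.142, against -0.17 to 0.02 for arrays of unlike number). With 3 arrays per group this does not settle whether the numbers pair the arrays, and the labels say only biological replicate. The reported fit was unpaired, and the fit with the replicate block is given as an alternative. Arrays of a group differed by a median of 0.125 to 0.168, so none was a copy. Nothing says whether pools came from separate animals, and p-values measure the spread between pools. The alternatives were the replicate block, 4 scalings, a filter on the dimmest 25% of probes, trend and robust variance, and leaving out each array. The fit was tested on simulated data. Values of all arrays are given for called genes, the 5 largest differences without a call, the 6 genes with the highest mean signal and the tetraspanin and self-protection genes. The members and lists were chosen with earlier results of these data known. From each other list up to 4 called genes with the smallest p were named, or the 2 smallest where fewer than 2 passed, and not all of these are described. Python 3.11.15, pandas 2.3.3 and matplotlib 3.10.9 served for tables and figures.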

Additional observations from a re-analysis of the deposited data

How the results depend on the processing

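CD58, CD9, CD276, CD82 and CD47 kept their direction and their call under all 13 alternatives, and the median difference of the 59 genes stayed between -0.01 and 0.13 except with ribosomal protein genes held level (0.60). The number of genes called higher, 1 as reported, was 3 with the replicate block, 2 with a common median, 2 after a second quantile normalization, 0 with cyclic loess and 46 with ribosomal protein genes held level, and it was 0 to 1 without any 1 array. The number called lower was 5 to 8 over all alternatives and 5 to 7 without any 1 array. The number without overlap, 23, became 48 with ribosomal protein genes held level. Over all probes 9270 then lay higher without overlap and 409 lower, against 2659 and 1762 as reported. That scaling adds about 0.53 to every difference by construction, and under it the sign turned for CD63 (0.44), CD2 (0.49), CD151 (0.015), CD2BP2 (0.50), CD101 (0.53), CD86 (0.50), CD80 (0.51), CD69 (0.53) and CD200R1 (0.53), and, without a call under either scaling, for CD59 (0.16), CD83 (0.38), CD99L2 (0.13), CD274 (0.34), CD34 (0.33) and CD180 (0.41). It also turned for the oocyte marker ZP4 (0.13). Over all probes it called 9327 higher and 423 lower, against 394 and 989 as reported. Decreases made up 71.5% of the calls over all probes, and 66.4% with the replicate block, 49.3% with a common median, 59.2% after a second quantile normalization and 80.6% with cyclic loess. The replicate block changed no call of a CD antigen gene other than those of CD28, CD14 and CD99L2. No gene had more than 1 probe, so averaging probes was not run. Detection was not assessed, which limits the 17 genes under the lower quartile of every array.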
